A study of Mus musculus with 6 samples.

Results

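Transcripts of 9 genes of the interferon regulatory factor (IRF) and signal transducer and activator of transcription (STAT) families were followed in primary mouse adipocytes: Irf1, Irf2, Irf3, Irf5, Irf7, Irf8, Irf9, Stat2 and Stat3. The 9 genes were found by symbol among the 35976 rows of a table of normalized read counts, and all 9 were among the 14211 genes that passed the filter on low values. RNA was read from 6 libraries in 3 groups of 2, all from cells with the Ppargc1a(fl/fl) genotype, in which loxP sites flank the gene for the coactivator PGC-1alpha. The groups were an adenovirus encoding Cre, the recombinase meant to excise Ppargc1a, with Rbm43 siRNA; an adenovirus encoding GFP with Rbm43 siRNA; and the GFP adenovirus with control siRNA. Rbm43 encodes an RNA-binding protein. RNA was taken after complete differentiation of the cells. Every group had received a virus and an siRNA; cells without them, and Cre virus combined with control siRNA, were not analysed here. The libraries are described as biological duplicates without mention of separate animals, so the p-values below measure only the spread between these libraries, which may be technical. The main fit, in limma, shares this spread in part across genes, so the standard error of a gene does not rest on its own values alone.

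IRF and STAT proteins carry interferon and cytokine signals to genes. Nucleic acid sensors and Toll-like receptors lead to phosphorylation of IRF3, IRF5 and IRF7, which then switch on interferon and other antiviral genes. Interferon receptors act through Janus kinases on STAT proteins, of which STAT2 joins IRF9 in the complex ISGF3 to bind interferon-stimulated response elements. Irf7 is itself a classic target of that complex. IRF1 and IRF2 bind related sites as an activator and, at many genes, its antagonist, IRF8 acts mainly in myeloid and dendritic cells, and STAT3 carries signals of the interleukin-6 family and leptin. In adipocytes these factors are studied for their part in fat cell inflammation, lipid metabolism and the response to infection.

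The 6 libraries held 15775398 to 21961724 reads in genes, and 1 read was worth 0.878 to 1.217 normalized counts. Rbm43 had 53.8 and 32.5 normalized counts with Cre virus and Rbm43 siRNA, 43.7 and 46.6 with GFP virus and Rbm43 siRNA, and 185 and 224 with GFP virus and control siRNA. Ppargc1a had 463 and 469 in the libraries labelled Cre virus with Rbm43 siRNA, 399 and 423 with GFP virus and Rbm43 siRNA, and 163 and 202 with GFP virus and control siRNA. It was not lower in the libraries labelled Cre virus, and since a count over the whole gene takes in exons outside the excised part, it does not check excision. Directions below follow the virus labels. Of 15 mature adipocyte markers all were above the filter, with Adipoq between 18220 and 23080. Their summed normalized counts were 386600 and 389600 with Cre virus and Rbm43 siRNA, 454600 and 465200 with GFP virus and Rbm43 siRNA, and 361700 and 340600 with GFP virus and control siRNA. These sums lean on a few abundant genes, such as Fabp4, at 191100 and 190500 with GFP virus and Rbm43 siRNA. Between the GFP virus groups 10 of the 15 markers rose with Rbm43 siRNA and 3 fell in limma. Retn was lower, at 515 and 457 with Rbm43 siRNA against 1513 and 1364 with control siRNA. Preadipocyte and fibroblast markers covered a wide range, from Col1a1 between 229700 and 271900 to Dpp4 between 5.20 and 11.7, and 10 of 11 were above the filter. The libraries of a group were also set against each other in 33 known ISGF3 target genes. Of these, 20 were higher in replicate 2 than in replicate 1 with Cre virus and Rbm43 siRNA (median difference 0.02 on the log2 scale), 5 with GFP virus and Rbm43 siRNA (−0.09) and 29 with GFP virus and control siRNA (0.37). The 2 control siRNA libraries thus stood apart in interferon-responsive genes, while 49.1% of all genes tested were higher in their replicate 2.

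The 9 genes covered a wide range of levels. Per kilobase of mRNA, Irf7 was first in cells with Rbm43 siRNA, at 1308 ± 38.7 normalized counts with Cre virus and 1391 ± 153 with GFP virus, against 620 ± 61.6 with GFP virus and control siRNA, where Stat3 stood above it (SD, n = 2 each). Stat3 had 1119 ± 30.2 per kilobase with Cre virus and Rbm43 siRNA, 1041 ± 36.9 with GFP virus and Rbm43 siRNA, and 1103 ± 8.62 with GFP virus and control siRNA. So the order of these genes at the top was reversed between the Rbm43 siRNA groups and the control siRNA group, and in each group their libraries did not overlap. Below them came Stat2 (432 to 590 per kilobase over the 6 libraries), Irf9 (328 to 405), Irf1 (262 to 298), Irf3 (239 to 276) and Irf2 (165 to 209). Irf5 and Irf8 were far lower, at 25.8 to 46.2 and 4.32 to 10.2 per kilobase. Within each group every gene lay above the next in both libraries, except that Irf1 and Irf3 overlapped with GFP virus and control siRNA. Irf8 rested on 14 to 28 reads a library and Irf5 on 62 to 96, against 1044 to 2957 for Irf7, so counting error alone limits what can be seen for Irf8.

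**Figure D1:**
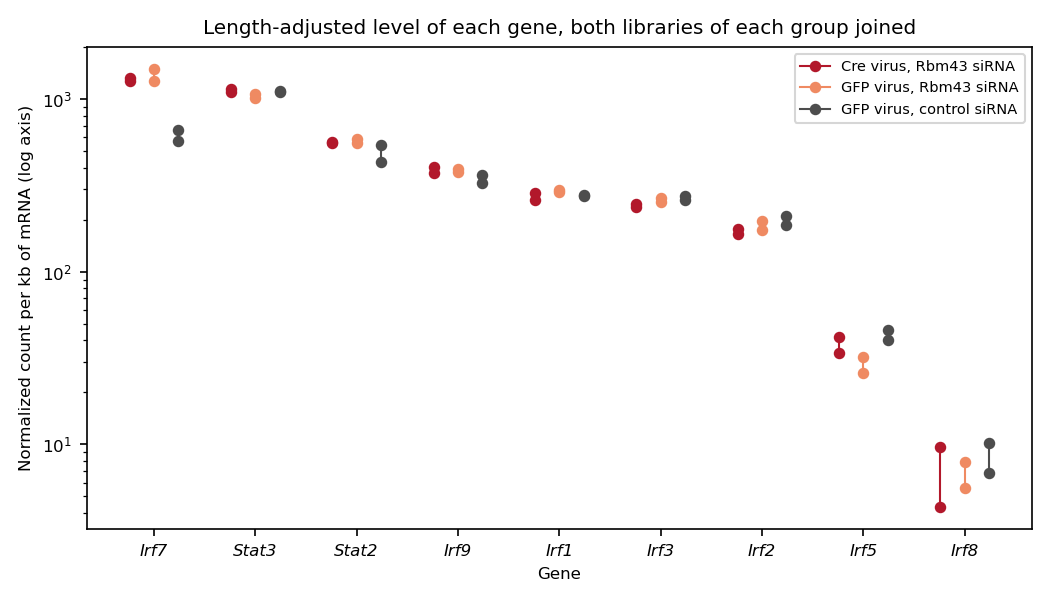
Normalized counts per kilobase of mRNA on a log axis for the 9 genes, ordered by their mean over the 6 libraries; each point is 1 library and a line joins the 2 libraries of a group. Irf7 sits at 1308 and 1391 on average in the groups with Cre or GFP virus and Rbm43 siRNA and at 620 with GFP virus and control siRNA, while Irf8 stays at or below 10.2 in every library.

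The first comparison asks how the genes responded to Rbm43 siRNA in cells with GFP virus. Irf7, the interferon-inducible amplifier of interferon production, rose to 2.24 times its level with control siRNA. Stat2, a subunit of ISGF3, rose by a much smaller amount, and Irf5, a factor downstream of Toll-like receptors, fell. The other 6 genes did not pass the test, with log2 fold changes between −0.32 and 0.16. Thus 3 of 9 genes changed (2 higher, 1 lower), where 23.2% of all 14211 genes did, at an adjusted p under 0.05 in limma. The median log2 fold change of the 9 was −0.04, against −0.01 over all genes, and 6 of the 9 had libraries that did not overlap between the groups, as did 58.5% of all genes.

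Irf7 lies on the minus strand of mm10 chromosome 7, from 141262706 to 141266481. Its normalized counts were 2871 and 2458 with GFP virus and Rbm43 siRNA, against 1104 and 1271 with GFP virus and control siRNA. Both Rbm43 siRNA libraries stood well above both control siRNA libraries. The log2 fold change was 1.16 ± 0.07 (standard error, 95% interval 1.01 to 1.32; limma adjusted p = 1.86e-09), and Irf7 was called in all the alternative fits, with values from 1.05 to 1.28 when a library was left out. Among the other factors that sensors and Toll-like receptors act on, Irf3 (chromosome 7, 44997648 to 45002848, plus strand) had 543 and 514 with GFP virus and Rbm43 siRNA and 560 and 526 with GFP virus and control siRNA. These groups overlapped, and the log2 fold change of Irf3 was −0.04 ± 0.08 (limma adjusted p = 0.768). Its interval, −0.20 to 0.12, holds no change of the size seen for Irf7.

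Irf5 (chromosome 6, 29526625 to 29541871, plus strand) had 71.9 and 57.8 with GFP virus and Rbm43 siRNA and 90.5 and 104 with GFP virus and control siRNA. Both Rbm43 siRNA libraries were below both control siRNA libraries, and Irf5 fell by 0.58 on the log2 scale (SE 0.18; limma adjusted p = 0.0233). Macrophages express Irf5 strongly, and macrophage and myeloid markers were also examined. Of 19, 16 passed the filter, 0 rose and 4 fell, where 13.5% of all genes rose and 9.76% fell. Those that fell were Csf1r, the receptor for the macrophage growth factor CSF1 (by 0.57), Laptm5 (0.66), Itgam (0.68) and Cd14 (0.56). The median log2 fold change of the tested markers was −0.05, against −0.01 over all genes. Some markers had higher means with GFP virus and Rbm43 siRNA without being called. Among them were Cd68 (131, against 99.2 with GFP virus and control siRNA) and Mrc1 (92.6 against 74.2), both named after their values were seen. The number of markers that fell was 2 without GFP virus, control siRNA replicate 1, without GFP virus, Rbm43 siRNA replicate 2, with DESeq2, with no filter or without the mean-variance trend, and 2 rose without control siRNA replicate 2. The summed normalized counts of the 19 markers were 2294 and 1946 with GFP virus and Rbm43 siRNA and 2278 and 2311 with GFP virus and control siRNA, and none of the 19 was at 0 in all 6 libraries. Their part in the change of Irf5 was not tested, and fewer cells of a type and less RNA per cell cannot be told apart in RNA from whole cultures. The call for Irf5 was lost without GFP virus, control siRNA replicate 2 (−0.48), without GFP virus, Rbm43 siRNA replicate 2 (−0.42), with DESeq2, with no filter and without the mean-variance trend. Exons of Irf5 and of Tnpo3 on the other strand share 411 of the 2905 exon bases of Irf5, and the strand setting of the counting is not given in the sources used here.

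The subunits of ISGF3 were shifted in the same direction by small amounts. Stat2 (chromosome 10, 128270559 to 128292849, plus strand) had 2594 and 2437 with GFP virus and Rbm43 siRNA, against 1901 and 2382 with GFP virus and control siRNA. The groups were apart by a narrow margin, because control siRNA replicate 2 came close to the Rbm43 siRNA libraries. Stat2 rose by 0.24 ± 0.07 on the log2 scale (limma adjusted p = 0.0247). The size of this change depended on the control libraries: it was 0.08 without GFP virus, control siRNA replicate 1, and 0.40 without replicate 2. The call was lost without control siRNA replicate 1, without GFP virus, Rbm43 siRNA replicate 1 (0.20), without either Cre virus library (0.24 each), in a fit of only the 2 groups, with DESeq2, with quantile scaling, with no filter and without the mean-variance trend. Irf9, the DNA-binding subunit (chromosome 14, 55603571 to 55610030, plus strand), had 964 and 936 with GFP virus and Rbm43 siRNA and 807 and 892 with GFP virus and control siRNA. Both Rbm43 siRNA libraries were the higher, but the log2 fold change of 0.16 ± 0.07 did not pass the test (limma adjusted p = 0.101), and it did without GFP virus, control siRNA replicate 2 (0.23).

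Irf1, the activator induced by interferon-gamma (chromosome 11, 53770014 to 53778374, plus strand), had 623 and 636 with GFP virus and Rbm43 siRNA and 584 and 592 with GFP virus and control siRNA. Its groups did not overlap, yet the log2 fold change was 0.10 ± 0.07 (limma adjusted p = 0.357). Irf2, its antagonist at many sites (chromosome 8, 46739732 to 46847458, plus strand), had 493 and 434 with GFP virus and Rbm43 siRNA and 468 and 522 with GFP virus and control siRNA, which overlapped (−0.10 ± 0.09; limma adjusted p = 0.482). Irf8, a myeloid factor (chromosome 8, 120736358 to 120756694, plus strand), had 22.3 and 15.9 with GFP virus and Rbm43 siRNA and 29.1 and 19.5 with GFP virus and control siRNA, and with so few reads its 95% interval ran from −1.11 to 0.46. Stat3 (chromosome 11, 100885098 to 100939540, minus strand) had 4817 and 4582 with GFP virus and Rbm43 siRNA and 4955 and 5010 with GFP virus and control siRNA. Both Rbm43 siRNA libraries were lower by a little, with a log2 fold change of −0.08 ± 0.05 (limma adjusted p = 0.228).

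**Figure D2:**
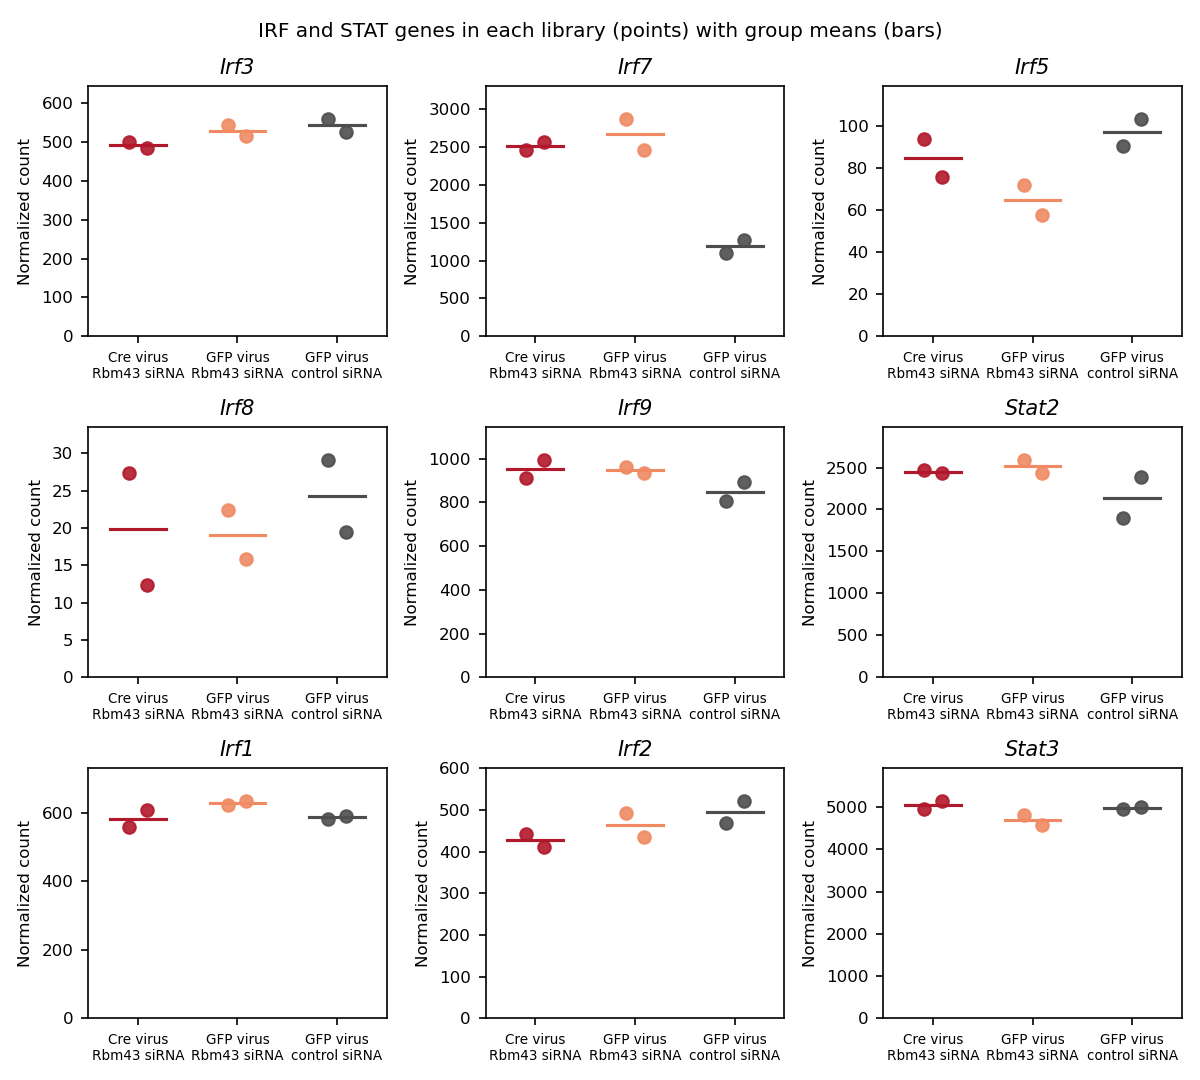
Normalized counts of the 9 genes, 1 panel a gene with its own axis from 0; points are the 2 libraries of each group and bars their mean. Irf7 stands at 2453 and 2558 with Cre virus and Rbm43 siRNA and 2871 and 2458 with GFP virus and Rbm43 siRNA, above 1104 and 1271 with GFP virus and control siRNA, and the remaining panels show smaller shifts or overlap.

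The promoters of the genes that changed are shown because Irf7 and Stat2 are both known to respond to interferon and because Irf5 moved the other way. Each runs from 250 bases before to 50 bases after a transcription start in RefSeq on GRCm38.p6, the reference assembly behind mm10, and all 9 genes had at least 1 entry. The Irf7 promoter lies at chr7:141266375-141266674 on the minus strand, that of Stat2 at chr10:128270248-128270547 on the plus strand, that of Irf5 at chr6:29526375-29526674 on the plus strand and that of Irf2, shown as the other gene with a match to the response element, at chr8:46739495-46739794 on the plus strand. Capitals mark matches, on either strand, to the interferon-stimulated response element, searched as GAAA, any 2 bases and GAAA, and to the gamma-activated site, searched as TTCNNNGAA, which is the same on both strands.
Irf7: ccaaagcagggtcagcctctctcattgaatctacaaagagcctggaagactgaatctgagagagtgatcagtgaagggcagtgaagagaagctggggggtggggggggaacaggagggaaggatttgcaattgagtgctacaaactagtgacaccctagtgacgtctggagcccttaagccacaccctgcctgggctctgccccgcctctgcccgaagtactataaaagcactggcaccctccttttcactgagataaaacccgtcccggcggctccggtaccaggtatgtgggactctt
Stat2: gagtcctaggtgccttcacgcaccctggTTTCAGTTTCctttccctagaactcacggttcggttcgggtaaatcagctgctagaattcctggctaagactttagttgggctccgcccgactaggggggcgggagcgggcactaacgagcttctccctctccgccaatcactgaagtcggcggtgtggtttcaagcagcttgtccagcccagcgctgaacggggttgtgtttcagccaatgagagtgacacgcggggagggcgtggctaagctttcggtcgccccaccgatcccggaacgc
Irf5: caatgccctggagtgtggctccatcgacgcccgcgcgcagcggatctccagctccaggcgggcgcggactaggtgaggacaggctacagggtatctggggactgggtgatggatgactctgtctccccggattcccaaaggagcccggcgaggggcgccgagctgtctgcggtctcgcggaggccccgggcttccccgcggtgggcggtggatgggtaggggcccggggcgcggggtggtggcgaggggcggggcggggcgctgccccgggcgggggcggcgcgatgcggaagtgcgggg
Irf2: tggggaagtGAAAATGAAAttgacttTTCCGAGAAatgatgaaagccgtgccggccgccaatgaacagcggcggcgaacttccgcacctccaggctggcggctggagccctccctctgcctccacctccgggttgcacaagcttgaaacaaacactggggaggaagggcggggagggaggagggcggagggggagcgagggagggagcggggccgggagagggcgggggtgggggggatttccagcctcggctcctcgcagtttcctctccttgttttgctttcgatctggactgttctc
The response element letters occurred in 3.44% of 32851 promoters of this length. Counted by gene over any of its promoters, they were in 3.99% of 27025 genes and in 2 of the 9 genes. In Stat2 the match, TTTCAGTTTC on the opposite strand, began 222 bases before the start, and in Irf2 the match GAAAATGAAA began 241 bases before it. Gamma-activated site letters occurred in 8.3% of promoters and, counted by gene, in 9.55% of genes. They were found in Irf2 (TTCCGAGAA, 224 bases before the start), in the first of 2 Irf1 entries (TTCCCCGAA, 90 bases before) and in the first of 2 Irf8 entries (TTCTCGGAA and TTCAGAGAA, 171 and 153 bases before). The shorter IRF core AANNGAAA, which overlaps the response element, was in 23.9% of promoters and 26.7% of genes, and among the 9 in Irf2 and Stat2. Neither Irf7 nor Irf5 held any of the 3 patterns in this window, which says only that these letters are not there, and the start used for Irf7 (141266424) is not the outermost one in GENCODE M21 (141266481). For comparison, 11 of 26 ISGF3 target genes with an entry held the response element letters, against 3.99% of 27025 genes.

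Some other members of the STAT and IRF families were measured beside these. Stat6, the interleukin-4 signal carrier, had 2270 and 2240 with GFP virus and Rbm43 siRNA, against 1964 and 2028 with GFP virus and control siRNA, and rose by 0.18 ± 0.05 on the log2 scale (limma adjusted p = 0.0172). Stat5b, which carries growth hormone signals, had 788 and 783 with GFP virus and Rbm43 siRNA, against 684 and 693 with GFP virus and control siRNA, and rose by 0.19 ± 0.06 (limma adjusted p = 0.0404). In both genes the Rbm43 siRNA libraries were above the control siRNA libraries, while Stat5a was at −0.03 and Irf4 at 0.03 without passing the test. The calls for Stat5b and Stat6 were not made without GFP virus, Rbm43 siRNA replicate 1 (0.19 and 0.17) or replicate 2 (0.19 and 0.19), without the mean-variance trend or with DESeq2, and that for Stat5b was also lost without control siRNA replicate 1 (0.18) and without either Cre virus library (0.19 each), and with upper-quartile (0.17), total (0.16) and quantile scaling (0.17), with no filter and in a fit of only the 2 groups compared. Stat4 was at or below 2.91 normalized counts in every library and was not tested.

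Upstream of the factors, none of the tested interferon receptor genes and 6 of 24 activators passed the test. None of the interferon genes examined was detected above the floor, and other interferon genes were not examined. Ifna1, Ifna2, Ifna4, Ifng, Ifnl2 and Ifnl3 were at 0 in all 6 libraries and Ifnb1 had at most 1 read in a library. The floor was set at 3 reads, which equal 2.64 to 3.65 normalized counts. Receptor genes varied little, with Ifnar1 between 1661 and 1768 and Ifnar2 between 1038 and 1172 in the 6 libraries, and 0 of 5 tested receptor genes changed (0 at an unadjusted p under 0.05 in limma, 0 in edgeR and 0 in DESeq2). Of 24 tested activators of IRF3, IRF5 and IRF7, 5 rose and 1 fell, where 13.5% of all genes rose and 9.76% fell, so the share was near that over all genes (DESeq2 called 3), with a median log2 fold change of 0.11 against −0.01. Zbp1, a sensor of Z-form nucleic acid, had 1351 and 1237 with GFP virus and Rbm43 siRNA and 673 and 689 with GFP virus and control siRNA, a rise of 0.92 ± 0.06 (limma adjusted p = 5.76e-09). Trim25, a ubiquitin ligase that activates the RNA sensor RIG-I, rose by 0.48, Ddx58, which encodes RIG-I, by 0.26, Tbkbp1, which binds the kinase TBK1, by 0.37, and Traf6, named beyond the rule after its value was seen, by 0.25. Traf6 and Tbkbp1 were not called with DESeq2, and Traf6, Tbkbp1 and Ddx58 were not called without the mean-variance trend or without GFP virus, Rbm43 siRNA replicate 1. Traf6 was also not called without its replicate 2, Tbkbp1 without control siRNA replicate 2, and Ddx58 without control siRNA replicate 1, without either Cre virus library, with no filter or with only the 2 groups. The member that fell was Tlr4, the lipopolysaccharide receptor, by 0.23, also named after its value was seen. Of 13 Janus kinase and receptor genes tested, 1 rose, Jak3 by 0.46, while Jak1 and Jak2 were at 0.00 and 0.01 and Tyk2 at −0.14, and of 6 tested STAT3-activating ligands 0 changed (1 at an unadjusted p under 0.05 in limma, 0 in edgeR and 0 in DESeq2).

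Inhibitors went both ways. Of 26, 3 rose and 4 fell (median 0.02), a share near the 13.5% of all genes that rose and the 9.76% that fell. Cish, which restrains STAT5, had 865 and 834 with GFP virus and Rbm43 siRNA and 483 and 426 with GFP virus and control siRNA, and rose by 0.90 ± 0.07 (limma adjusted p = 4.23e-08). Socs2 and Socs5, suppressors of cytokine signalling, fell by 0.52 and 0.31, and Irf2bpl, a relative of the IRF2 corepressors, by 0.33. Usp18, the interferon-induced brake on the type I interferon receptor, rose by 0.55 and was named beyond the rule after its value was seen. Its libraries with GFP virus and control siRNA were far apart, at 327 and 503, against 679 and 516 with GFP virus and Rbm43 siRNA.

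Target genes were more often higher than lower. Of 33 ISGF3 target genes, 20 rose and 0 fell, where 13.5% of all genes rose and 9.76% fell, with a median log2 fold change of 0.40. Bst2, which tethers budding virus, had 2077 and 1944 with GFP virus and Rbm43 siRNA and 1313 and 1381 with GFP virus and control siRNA, a rise of 0.58 ± 0.06 (limma adjusted p = 3.95e-07). Oas2, a sensor of double-stranded RNA, rose by 0.74, Rtp4 by 0.69 and Ifi27 by 0.58. The median of 0.40 stands beside the median of 0.37 by which control siRNA replicate 2 exceeded replicate 1 in the same genes, and 17 rose and 2 fell without that group's replicate 1 and 30 rose without its replicate 2. The count was 7 without the mean-variance trend.

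Over all genes 13.5% rose and 9.76% fell, with a median log2 fold change of −0.01, beside which the following counts stand. Of 22 tested IRF1 target genes, 10 rose and 0 fell (median 0.24), among them the GTPase Gbp3 by 0.86, B2m, the light chain of MHC class I, by 0.48, the immunoproteasome subunit Psmb8 by 0.58 and the class I gene H2-D1, whose reads can be shared with close relatives, by 0.40. Among these genes 1 fell when control siRNA replicate 1 or GFP virus, Rbm43 siRNA replicate 1 was left out. Of 20 tested STAT3 target genes, 6 rose and 3 fell (median −0.03): Lcn2, an iron-siderophore binding protein, rose by 0.69, and the protease inhibitor Timp1, haptoglobin (Hp) and Myc fell by 0.35, 0.32 and 0.51, with 5 falling without control siRNA replicate 2 or with total scaling. Without the mean-variance trend 6 of the IRF1 target genes rose, and 1 of the STAT3 target genes rose and 1 fell. These lists overlap in what induces them, and mature adipocyte markers moved in the same comparison, with 10 of 15 higher and 3 lower. Their part in these results was not tested.

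The second comparison asks what Cre virus changed in cells with Rbm43 siRNA. None of the 9 genes passed the test, where 8.5% of all genes did (372 higher and 836 lower, or 565 and 734 with total scaling). That background depended on which libraries entered the fit: 1208 genes were called in all, 2060 and 2068 if control siRNA replicate 1 or 2 was dropped, 468 if the second GFP virus, Rbm43 siRNA library was, and 312 and 329 if a Cre virus library was. The count was 0 of 9 in limma, in edgeR and in DESeq2, and 2 of the 9 genes, Irf5 and Stat3, had an unadjusted p under 0.05 in limma. Irf7 stayed high in both groups, with 2453 and 2558 with Cre virus and Rbm43 siRNA and 2871 and 2458 with GFP virus and Rbm43 siRNA, which overlapped. Its log2 fold change was −0.08 ± 0.07, with a 95% interval from −0.24 to 0.07 (limma adjusted p = 0.565).

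Irf5 had 94.0 and 75.5 with Cre virus and Rbm43 siRNA, against 71.9 and 57.8 with GFP virus and Rbm43 siRNA. Both Cre virus libraries were higher, with a log2 fold change of 0.38 ± 0.18 and an interval from 0.01 to 0.75 (limma adjusted p = 0.225). Stat3 had 4959 and 5151 with Cre virus and Rbm43 siRNA, against 4817 and 4582 with GFP virus and Rbm43 siRNA. It was higher in both Cre virus libraries by 0.11 ± 0.05 on the log2 scale (limma adjusted p = 0.212). Irf1, at 559 and 609 with Cre virus and Rbm43 siRNA, and Irf3, at 499 and 485, lay below both libraries of GFP virus and Rbm43 siRNA, at log2 fold changes of −0.11 ± 0.07 and −0.10 ± 0.08. So 4 of the 9 genes had groups that did not overlap, as did 53.7% of all genes. The ISGF3 subunits overlapped, with Stat2 at 2467 and 2436 and Irf9 at 914 and 996 with Cre virus and Rbm43 siRNA, and log2 fold changes of −0.04 ± 0.07 and 0.01 ± 0.07. Irf2 had 442 and 412 and Irf8 27.4 and 12.3 in the same libraries, with log2 fold changes of −0.12 ± 0.09 and −0.03 ± 0.37.

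Among the relatives, Stat5a, which with STAT5B carries growth hormone and prolactin signals, was lower. Stat5a had 701 and 645 with Cre virus and Rbm43 siRNA, against 809 and 801 with GFP virus and Rbm43 siRNA, and fell by 0.26 (SE 0.07; limma adjusted p = 0.0266). The call was not made without GFP virus, Rbm43 siRNA replicate 1 (−0.25) or replicate 2 (−0.27), without Cre virus, Rbm43 siRNA replicate 1 (−0.32) or replicate 2 (−0.20), without the mean-variance trend, with no filter, with quantile scaling or with DESeq2. Stat6 and Stat5b were at 0.05 and 0.03 without passing the test. Irf4, which represses lipogenic genes in fat, had 5.87 and 4.39 with Cre virus and Rbm43 siRNA, against 11.7 and 10.3 with GFP virus and Rbm43 siRNA, on 5 to 12 reads a library, and was not called (−0.97 ± 0.46; limma adjusted p = 0.240).

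The upstream lists held no call in this comparison: 0 of 24 activators, 0 of 13 Janus kinase and receptor genes, 0 of 6 STAT3-activating ligands, 0 of 26 inhibitors and 0 of 5 interferon receptor genes in limma, with 3, 3, 6, 7 and 0 at an unadjusted p under 0.05. DESeq2 called 0 in each of these lists, and edgeR called 2 inhibitors and 0 in the others. The median of the 6 ligands was 0.50, against 0.00 over all genes, with Il6 at 0.54 ± 0.18 and Lif at 0.36 ± 0.12, neither of which passed (limma adjusted p = 0.0718 and 0.0733; both named after their values were seen). Of 33 ISGF3 target genes, 3 fell and 0 rose (median −0.10), where 5.88% of all genes fell and 2.62% rose. Rsad2, which encodes the antiviral protein viperin, had 344 and 354 with Cre virus and Rbm43 siRNA, against 520 and 529 with GFP virus and Rbm43 siRNA, and fell by 0.59 (SE 0.12; limma adjusted p = 0.00357). The others were Ifit3b, which fell by 0.53, and Ifi27, which fell by 0.22. The number of ISGF3 target genes that fell was 10 without either control siRNA library and 9 in a fit of only the 2 groups, 1 without either GFP virus, Rbm43 siRNA library and 0 without either Cre virus library. It was 5 with edgeR, 1 with DESeq2 and with quantile scaling, and 0 with no filter.

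Of 22 IRF1 target genes, 6 fell and 1 rose (median −0.16), where 5.88% of all genes fell and 2.62% rose. The proteasome activators Psme2 and Psme1 fell by 0.33 and 0.22 and the immunoproteasome subunit Psmb9 by 0.45, while the gene that rose, Nos2 (inducible nitric oxide synthase), had 702 and 711 with Cre virus and Rbm43 siRNA, against 605 and 365 with GFP virus and Rbm43 siRNA. Without either control siRNA library 10 of them fell, without GFP virus, Rbm43 siRNA replicate 1 and replicate 2 it was 1 and 2, and without either Cre virus library 1, and Nos2 was not called without GFP virus, Rbm43 siRNA replicate 2 (0.22), without either Cre virus library, with no filter or with DESeq2. With no filter 1 of the 22 fell, with total scaling 3 and with only the 2 groups 10. Of 20 STAT3 target genes, 5 rose and 0 fell (median 0.12), where Timp1 rose by 0.35, cyclin D1 (Ccnd1) by 0.24, the hypoxia factor Hif1a by 0.17 and Junb by 0.29. The count was 1 without GFP virus, Rbm43 siRNA replicate 2, 1 without Cre virus, Rbm43 siRNA replicate 1 and 0 without its replicate 2. Without the mean-variance trend limma called 0 genes of any kind in this comparison, with 2355 at an unadjusted p under 0.05 (edgeR called 1336 and DESeq2 838). In the same comparison 10 of 15 mature adipocyte markers fell and 0 rose, and 0 of 16 myeloid markers changed (3 at an unadjusted p under 0.05 in limma, 0 in edgeR and 0 in DESeq2). Their part in these results was not tested.

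Both treatments differ in the third comparison, of Cre virus and Rbm43 siRNA with GFP virus and control siRNA. Irf7 was the member that passed the test and was higher, and the other 8 genes had log2 fold changes between −0.35 and 0.20. That is 1 of 9 genes, where 14.7% of all genes changed. Irf7 had 2453 and 2558 with Cre virus and Rbm43 siRNA, against 1104 and 1271 with GFP virus and control siRNA, and both Cre virus libraries were well above both control siRNA libraries. It rose by 1.08 ± 0.07 on the log2 scale (limma adjusted p = 7.78e-09), with 0.98 to 1.18 when a library was left out. The comparison shares its control libraries with the first and its Cre virus libraries with the second, so the values are given side by side and not as separate evidence.

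The ISGF3 subunits were again slightly above control siRNA without passing the test. Stat2 had 2467 and 2436 with Cre virus and Rbm43 siRNA, against 1901 and 2382 with GFP virus and control siRNA, and Irf9 had 914 and 996, against 807 and 892. In both genes the groups did not overlap, and log2 fold changes of 0.20 ± 0.07 for Stat2 and 0.17 ± 0.07 for Irf9 were measured (limma adjusted p = 0.0751 and 0.113). Without GFP virus, control siRNA replicate 2, both were called (0.37 and 0.24), and without replicate 1 Stat2 stood at 0.04. Irf5 had 94.0 and 75.5 with Cre virus and Rbm43 siRNA, against 90.5 and 104 with GFP virus and control siRNA. These groups overlapped, and the log2 fold change of Irf5 was −0.20 ± 0.18 (limma adjusted p = 0.523).

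Irf2 and Irf3 were lower in both Cre virus libraries. Irf2 had 442 and 412 with Cre virus and Rbm43 siRNA, against 468 and 522 with GFP virus and control siRNA, a log2 fold change of −0.21 ± 0.09 (limma adjusted p = 0.119) that was called without control siRNA replicate 1 (−0.29). Irf3 had 499 and 485, against 560 and 526, with −0.14 ± 0.08 (limma adjusted p = 0.244). Counting Irf7, Irf9 and Stat2 above and Irf2 and Irf3 below, 5 of the 9 genes did not overlap between the groups, as did 54.6% of all genes. The log2 fold changes of Irf1, Irf8 and Stat3 were −0.01 ± 0.07, −0.35 ± 0.37 and 0.02 ± 0.05, and their libraries overlapped.

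**Figure D3:**
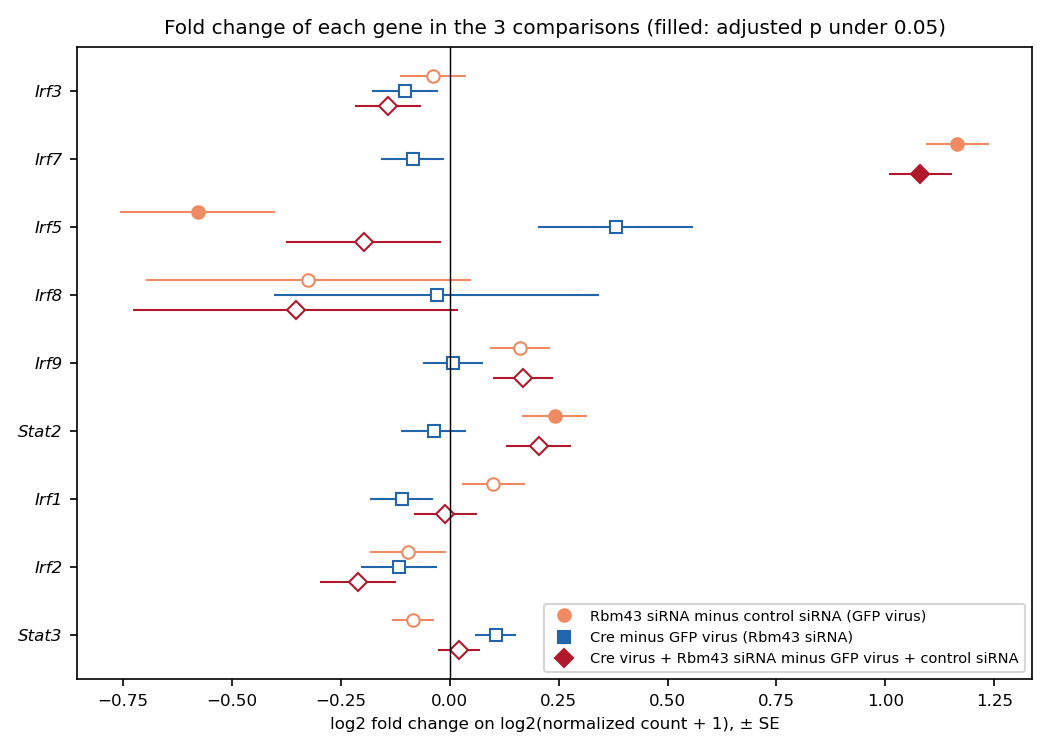
Log2 fold changes of the 9 genes on the log2(normalized count + 1) scale in the 3 comparisons, with bars of 1 standard error and filled symbols for an adjusted p under 0.05. Irf7 lies at 1.16 and 1.08 against GFP virus with control siRNA and at −0.08 between Cre and GFP virus, and Irf5 lies at −0.58, 0.38 and −0.20 in the first, the second and the third comparison.

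In the third comparison Stat6 had 2370 and 2306 with Cre virus and Rbm43 siRNA, against 1964 and 2028 with GFP virus and control siRNA, and rose by 0.23 ± 0.05 (limma adjusted p = 0.00458), and Stat5b rose by 0.22. Stat5a had 701 and 645 with Cre virus and Rbm43 siRNA, against 783 and 864 with GFP virus and control siRNA, and fell by 0.29 (SE 0.07; limma adjusted p = 0.00835). Stat5a was not called without Cre virus, Rbm43 siRNA replicate 2 (−0.23), nor were Stat5b and Stat6 without either Cre virus library (0.19 and 0.24 for Stat5b, 0.21 and 0.25 for Stat6). None of these 3 passed without the mean-variance trend, and Stat5b did not pass with no filter or with DESeq2.

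Of 24 activators, 5 rose and 0 fell (DESeq2 called 3), where 8.47% of all genes rose and 6.28% fell, with Zbp1 at 1235 and 1294 with Cre virus and Rbm43 siRNA and 673 and 689 with GFP virus and control siRNA (0.89 ± 0.06; limma adjusted p = 1.72e-08). Traf6, a ligase of Toll-like receptor signalling, rose by 0.40, Tbkbp1 by 0.43, Trim25 by 0.32 and Tbk1, the kinase that phosphorylates IRF3 and IRF7, by 0.29, the last named after its value was seen. Trim25 and Tbkbp1 were not called without the mean-variance trend, nor Trim25 without Cre virus, Rbm43 siRNA replicate 1, nor Tbkbp1 without either Cre virus library or with DESeq2. Of 26 inhibitors, 4 rose and 2 fell (DESeq2 called 2): Cish rose by 0.69, Tnfaip3 (A20) by 0.37 and Irf2bp2 by 0.22, and Socs2 fell by 0.48. Tnfaip3 and Irf2bp2 were not called without either Cre virus library, without the trend, with no filter or with DESeq2, and Tnfaip3 also not without control siRNA replicate 1. Of 6 STAT3-activating ligands, Il11 rose by 1.13 and leptin (Lep) fell by 0.62 in limma, and DESeq2 called 0 of the 6 (2 at an unadjusted p under 0.05 in limma, 2 called by edgeR). Neither was called without either Cre virus library or without the mean-variance trend, nor Il11 with no filter, nor Lep without control siRNA replicate 2 (−0.49). None of 13 Janus kinase and receptor genes and none of 5 interferon receptor genes changed in limma, edgeR or DESeq2, with 3 and 0 at an unadjusted p under 0.05 in limma.

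Of 33 ISGF3 target genes, 19 rose and 1 fell (median 0.24), where 8.47% of all genes rose and 6.28% fell. Bst2 rose by 0.56, Oas2 by 0.69, Ifi44 by 0.80 and Oasl2 by 0.70. The gene that fell was Mx1, named after its value was seen, with 20.6 and 26.4 with Cre virus and Rbm43 siRNA, against 48.9 and 66.9 with GFP virus and control siRNA (−1.26 ± 0.25; limma adjusted p = 0.00155). The number that rose was 10 and 8 without Cre virus, Rbm43 siRNA replicate 1 and replicate 2, 10 with no filter and 2 without the mean-variance trend. Without GFP virus, control siRNA replicate 1, 13 rose and 7 fell, and without its replicate 2, 22 rose. Of 22 IRF1 target genes, 6 rose and 2 fell, with Gbp3 at 0.62, B2m at 0.34, Psmb8 at 0.46 and H2-D1 at 0.23. Cxcl10, an interferon-induced chemokine, fell by 0.67 and H2-K1 by 0.23, both named after their values were seen. The counts were 3 and 0 without Cre virus, Rbm43 siRNA replicate 1, 0 fell without its replicate 2 and 1 fell without control siRNA replicate 2. Of 20 STAT3 target genes, 7 rose and 2 fell, with Lcn2 at 0.79, the acute phase gene Saa3 at 0.93, Vegfa at 0.31 and Bcl6 at 0.37, and 4 rose without Cre virus, Rbm43 siRNA replicate 1 or 2, with 0 and 1 falling. Without the mean-variance trend 2 IRF1 and 1 STAT3 target genes rose and 0 fell. In the same comparison 4 of 15 mature adipocyte markers rose and 5 fell, and 2 of 16 myeloid markers fell (Cd14 and Laptm5; 0 with DESeq2, or without either Cre virus library, either GFP virus, Rbm43 siRNA library or control siRNA replicate 1), whose part in these results was not tested.

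**Figure D4:**
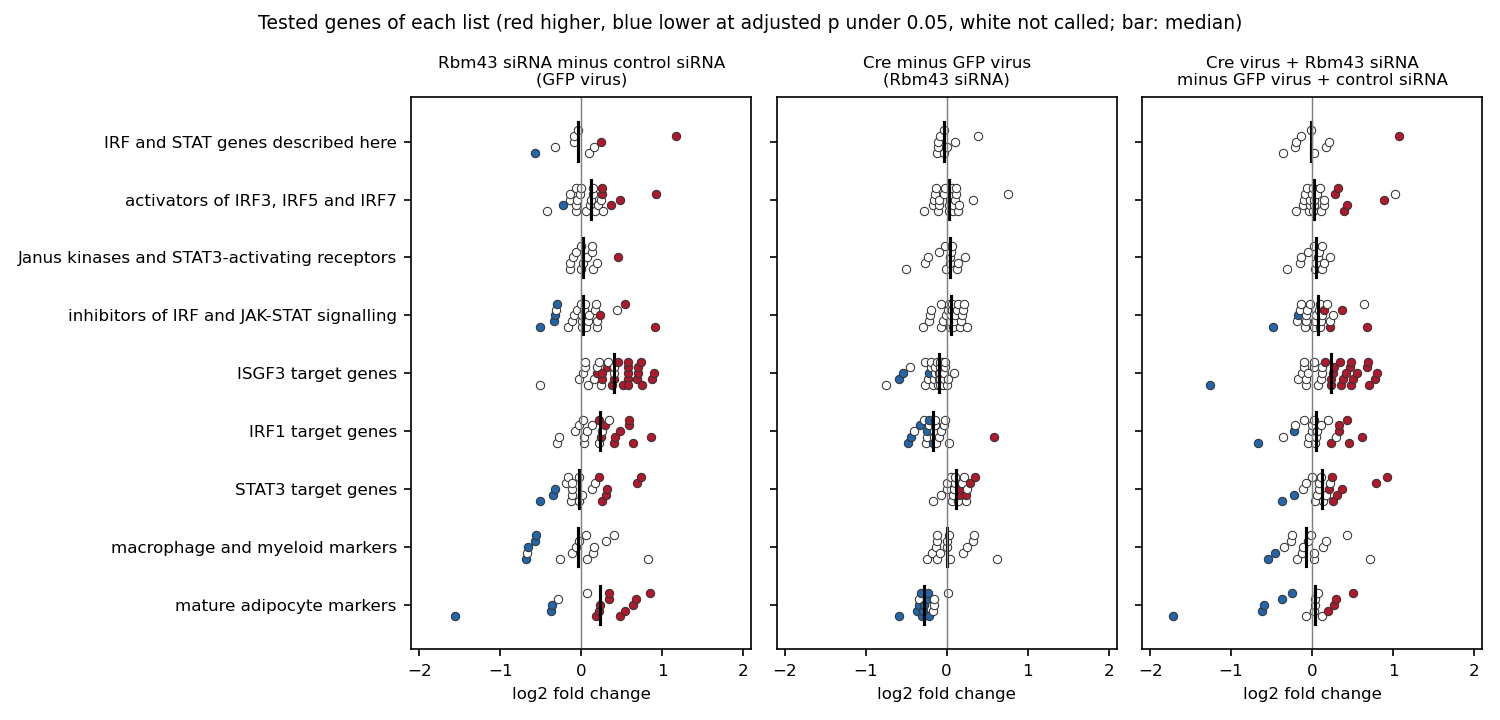
Log2 fold change of each tested gene of the 9 genes and of 8 lists in the 3 comparisons, with red for higher, blue for lower and white for not passing an adjusted p of 0.05, and a bar at each median. The medians of the 33 ISGF3 target genes lie at 0.40, −0.10 and 0.24 in the first, the second and the third comparison, and those of the 9 genes at −0.04, −0.04 and −0.01.

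Genes whose profile over the 6 libraries was most like that of each changed gene were found by the root mean square difference of log2 values after centring each gene on its own mean. For Irf7, whose own profile had a root mean square of 0.54, these were Hvcn1 (a difference of 0.09), Hdac9 (0.09) and BC023105 (0.10). Hvcn1 had 44.0 and 40.4 with Cre virus and Rbm43 siRNA, 48.5 and 37.3 with GFP virus and Rbm43 siRNA, and 18.7 and 21.9 with GFP virus and control siRNA, so it too was higher in all 4 Rbm43 siRNA libraries. For Irf5 they were Evi2a (0.02, against 0.28 for the profile of Irf5), Fgd3 (0.08) and Ly75 (0.08). Evi2a had 62.6 and 50.9 with Cre virus and Rbm43 siRNA, 47.6 and 37.3 with GFP virus and Rbm43 siRNA, and 61.4 and 70.6 with GFP virus and control siRNA, lowest with GFP virus and Rbm43 siRNA as Irf5 was. For Stat2 they were Trim12c, Kin and Mnda (0.03 each, against 0.14), and all 3 shared with Stat2 a control siRNA replicate 2 that was higher than replicate 1, Trim12c having 1174 and 1153 with Cre virus and Rbm43 siRNA, 1206 and 1156 with GFP virus and Rbm43 siRNA, and 905 and 1078 with GFP virus and control siRNA. For Irf9, at 0.10, the closest was Fuca2 (0.01), for Irf2, at 0.12, Zfp78 (0.01), and for Stat3, at 0.05, Slc35e1 (0.01). Each likeness rests on 6 libraries. These genes were picked for likeness over the same libraries, so the shifts they share follow from the choice and are not separate evidence.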

How the data were processed

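RNA of 6 libraries from primary adipocytes was sequenced after a stranded mRNA kit, per the labels' protocols. Per the labels and the values, the deposited table gives a normalized signal, in which each gene's read count was divided by a size factor of its library. Named without roles in the submitters' processing notes are STAR 2.7.8, fastp 0.23.2, DESeq2 2.11.40.7 and the mm10 build, with the gene counter, annotation and strand setting not given in the sources used here. Whole reads were recovered within 0.01 read for 100% of values in each library. Of the 35976 rows, all with a gene name, 13032 held 0 throughout.

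Tested were the 14211 genes that reached 10 normalized counts in 2 or more libraries. Values were taken as log2(normalized count + 1), so that fold changes of genes with few reads are understated, and fitted in limma 3.58.1 (R 4.3.3) with its trend of variance on mean, 1 mean per group over all 6 libraries, and p-values were adjusted by Benjamini-Hochberg at 0.05. The contrasts were Rbm43 against control siRNA under GFP virus, Cre against GFP virus under Rbm43 siRNA, and both treatments against neither. From the recovered reads, in the same order, edgeR 4.0.16 called 3263, 1336 and 2111 genes and DESeq2 1.42.0 called 2035, 838 and 1220. Chi-square per degree of freedom between replicates was 1.77 for Cre virus with Rbm43 siRNA, 2.76 for GFP virus with Rbm43 siRNA and 4.19 for GFP virus with control siRNA, all above sampling noise. The procedure was also run on simulated data with known changes. That simulation gave all 6 libraries the same spread, so it does not check the procedure under the unequal spread of these groups. Lengths are of the longest principal protein-coding transcript in GENCODE M21, on the same build, and promoters are from RefSeq on GRCm38.p6.

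The 9 genes and 14 lists were chosen with earlier results of these data known. Beside the 9 genes, the naming rule takes Rbm43, Ppargc1a, relatives in both families (some are not reported here), up to 4 genes with the smallest p from each list and the 3 genes most like each member. Other settings tried were pseudocounts of 0.5 and 5, a filter at 50 or none, 4 scalings (upper-quartile, total, TMM and quantile), a replicate block, a fit limited to 2 groups, limma without its trend, edgeR, DESeq2 and each library left out.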

Additional observations from a re-analysis of the deposited data

How the results depend on the processing

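Irf7 kept its direction and its call against GFP virus with control siRNA in every alternative run, in the first and in the third comparison. The number of the 9 genes called in the first comparison, 3, became 1 with no filter, without the mean-variance trend and with DESeq2, and 2 to 3 when a library was left out. In the third comparison, where 1 was called, it was 2 with the replicate block and 1 to 3 when a library was left out, and in the second it was 0 throughout. The number of all genes called in the first comparison was 1304 without the trend, 2035 with DESeq2 and 2115 to 3633 with a library left out, the lowest without GFP virus, Rbm43 siRNA replicate 2. In the second comparison it was 609 with no filter, 2083 with only the 2 groups, 0 without the trend (2355 at an unadjusted p under 0.05 in limma, 1336 called by edgeR and 838 by DESeq2) and 312 to 2068 with a library left out. In the third it was 1251 with no filter, 433 without the trend, 1220 with DESeq2 and 770 to 2654 with a library left out, the lowest without a Cre virus library. The causes of these shifts were not tested, except that a library left out removes samples.

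Signs turned for values that did not pass the test. With quantile scaling Irf4 stood at −0.025 in the first comparison, and Irf8 in the second was 0.034 with edgeR and 0.048 with DESeq2. With a library left out, values in the first comparison ran from −0.083 to 0.0065 for Irf3, −0.14 to 0.20 for Irf4 and −0.10 to 0.039 for Stat5a. In the second they ran from −0.20 to 0.027 for Irf7, −0.58 to 0.52 for Irf8, −0.055 to 0.068 for Irf9, −0.082 to 0.0081 for Stat2 and −0.46 to 0.25 for Rbm43, and in the third from −0.072 to 0.051 for Irf1, −0.90 to 0.19 for Irf8 and −0.0068 to 0.048 for Stat3. No scaling moved the median of all genes by more than 0.025.

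The groups share replicate numbers 1 and 2 in the labels, which name no shared animal or day, and deviations of same-numbered libraries correlated at 0.019, −0.037 and −0.042 over genes in the 3 comparisons, so the numbers were not taken as pairs. With the replicate block 3412, 1304 and 2214 genes were called, and of the 9 genes Stat2 was called in the third comparison (0.20). Depth limits Irf8 and Irf4 most, and with 2 libraries a group a single library can decide a call.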
